A study of Mus musculus with 15 samples.

Results

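The genes described here are the 47 protein-coding genes of GABA and glutamate signalling, among 27174 genes in the deposited table. They were chosen by symbol alone: the subunits of the GABA-A receptor (16 genes), the AMPA (4), kainate (5), NMDA (7) and delta (2) subunits of the ionotropic glutamate receptors, the metabotropic glutamate receptors (8), the genes that make GABA and load it into vesicles (3), and the vesicular glutamate transporters (2). A gene was tested where 3 or more libraries held a score of 10 or more, which 19668 genes met, 44 of the 47 among them. Gabre, Gabrr2 and Grm6 did not meet it. The 5 groups differed in 40 of the 44 by limma's F-test, where 43.5% of all genes did. Grik1, Grik4, Grin2d and Grin3b were not called by it.

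RNA was measured in microvessels isolated from brains of adult wild-type BL6/57 mice, with 3 libraries in each of 5 groups and 3 mice pooled in each library. Mice with tumours were sampled 21 days after orthotopic transplantation of glioblastoma cells. The triple therapy tumours came from mice given Aflibercept, a soluble decoy receptor for VEGF, AMG386, a peptibody that neutralises angiopoietins, and an antibody against PD1. The dual therapy tumours came from mice given Aflibercept and AMG386 without the PD1 antibody. The untreated tumours came from mice given control IgG, and the contralateral samples from the opposite hemisphere of mice given control IgG. The sham samples came from healthy mice that were sham-operated, with no sampling day stated in the labels for them. Which tumour cells were transplanted is not stated in the sources used.

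GABA is the main inhibitory and glutamate the main excitatory transmitter of the brain. GABA is made from glutamate by the decarboxylases Gad1 and Gad2, is loaded into vesicles by Slc32a1 and opens pentameric chloride channels, the GABA-A receptors. Glutamate is loaded by Slc17a6 or Slc17a7 and acts on tetrameric cation channels of the AMPA, kainate and NMDA classes and on G protein coupled metabotropic receptors. Neurons carry most of this machinery, astrocytes and oligodendrocyte precursors carry some of it, and endothelial cells are not its usual site.

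The start regions of 4 of the genes are shown because the genes contrast in untreated tumours: Slc32a1, Gad1 and Gad2, the genes that define a GABA neuron and were among the most reduced in untreated tumours, and Grik3, a kainate receptor subunit whose level in untreated tumours overlapped that of the contralateral hemisphere. RefSeq windows on build GRCm38.p6, from 250 bases before to 50 bases after the annotated start, matched 32 of the 47 genes. The windows are chr2:158610508-158610807 for Slc32a1, chr2:70561879-70562178 for Gad1, chr2:22622077-22622376 for Gad2 and chr4:125490446-125490745 for Grik3, all on the plus strand, and capitals mark the GC box GGGCGG or its reverse complement CCGCCC.
Slc32a1: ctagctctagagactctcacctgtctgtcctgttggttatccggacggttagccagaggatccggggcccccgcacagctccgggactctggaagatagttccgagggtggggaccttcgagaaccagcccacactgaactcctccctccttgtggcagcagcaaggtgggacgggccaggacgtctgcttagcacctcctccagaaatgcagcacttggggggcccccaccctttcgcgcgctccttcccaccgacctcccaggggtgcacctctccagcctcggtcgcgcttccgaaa
Gad1: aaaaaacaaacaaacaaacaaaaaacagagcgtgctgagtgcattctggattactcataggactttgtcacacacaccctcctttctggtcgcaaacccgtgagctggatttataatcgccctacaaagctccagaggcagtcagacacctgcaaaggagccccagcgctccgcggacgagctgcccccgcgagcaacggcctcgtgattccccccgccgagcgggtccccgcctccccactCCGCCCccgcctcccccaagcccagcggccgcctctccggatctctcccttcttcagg
Gad2: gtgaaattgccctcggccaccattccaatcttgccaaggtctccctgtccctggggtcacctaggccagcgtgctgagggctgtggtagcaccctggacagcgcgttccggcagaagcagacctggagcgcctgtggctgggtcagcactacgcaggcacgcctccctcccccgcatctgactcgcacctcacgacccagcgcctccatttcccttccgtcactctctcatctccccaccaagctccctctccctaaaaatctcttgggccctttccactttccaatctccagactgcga
Grik3: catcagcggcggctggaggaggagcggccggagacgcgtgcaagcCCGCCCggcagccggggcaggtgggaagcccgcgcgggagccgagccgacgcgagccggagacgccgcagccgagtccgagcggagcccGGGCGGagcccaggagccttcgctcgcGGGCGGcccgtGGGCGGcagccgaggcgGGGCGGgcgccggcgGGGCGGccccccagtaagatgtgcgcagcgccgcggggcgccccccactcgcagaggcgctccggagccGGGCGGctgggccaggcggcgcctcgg
The Grik3 window held 7 GC boxes and 50 CpG dinucleotides at 82% GC, the Gad1 window 1 GC box and 21 CpG at 60% GC, the Slc32a1 window 0 GC boxes and 17 CpG at 63.3% GC, and the Gad2 window 0 GC boxes and 14 CpG at 61.3% GC. The median window of all 32851 in the table held 7 CpG, and the median of the 40 windows of these genes held 12.5. A GC box on either strand was present in 50% of the 40 windows and in 35.7% of all windows. Windows with one included those of Gabra4, Gabrb2, Slc17a6 and Slc17a7, genes that also fell in untreated tumours. A link between GC boxes and levels was not tested. TATAAA was present in 12.5% of the 40 windows and 13.6% of all windows, TGACG, the core of a cAMP response element, in 17.5% of the 40 and 20.8% of all, and CCAAT in 37.5% of the 40 and 37.4% of all, also on either strand. Among the 4 windows shown, TATAAA was found in that of Gad1, and TGACG and CCAAT in that of Gad2. On build GRCm38 the files place Slc32a1 (ENSMUSG00000037771) at chr2:158610767-158615748, Gad1 (ENSMUSG00000070880) at chr2:70562042-70602014, Gad2 (ENSMUSG00000026787) at chr2:22622205-22693874 and Grik3 (ENSMUSG00000001985) at chr4:125490700-125714173, all on the plus strand, and Grik1 (ENSMUSG00000022935) at chr16:87895901-88290258 on the minus strand.

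Values are the authors' normalised reads per gene, rounded to whole numbers and called scores below. The estimated depth was 6368770 to 18056127 reads per library. The 47 genes took 0.0973% to 0.136% of the summed score in triple therapy tumours, 0.0588% to 0.104% in dual therapy tumours, 0.0182% to 0.0494% in untreated tumours, 0.141% to 0.186% in the contralateral hemisphere and 0.220% to 0.264% in sham brain. Endothelial markers had their summed score between 123561 and 158656 in triple therapy tumours, 137705 and 170129 in dual therapy tumours, 89684 and 129661 in untreated tumours, 153236 and 179532 in the contralateral hemisphere and 154262 and 158274 in sham brain, and none of the 12 was at 0. Pan-neuronal markers, also with none of the 14 at 0, summed to between 10736 and 15086 in triple therapy tumours, 6756 and 12530 in dual therapy tumours, 3539 and 6127 in untreated tumours, 15121 and 18323 in the contralateral hemisphere and 23487 and 31929 in sham brain. Mitochondrial ribosomal RNA took 9.55% to 12.2% of the score in triple therapy tumours, 15.2% to 17.4% in dual therapy tumours, 21.5% to 33.2% in untreated tumours, 14.5% to 15.8% in the contralateral hemisphere and 11.9% to 12.4% in sham brain, and its part in the results was not tested. Replicate 2 of the untreated tumours had the lowest score of its group for 39 of the 44 tested genes, against 39.4% of all genes. The same held of triple therapy replicate 3 for 33 of the 44 (34.6% of all genes), dual therapy replicate 2 for 27 (35.0%) and contralateral replicate 1 for 28 (29.4%). Nothing states that equal replicate numbers mark shared animals, and the p-values measure the spread between pooled libraries. In bulk samples fewer cells of a type and less RNA per cell cannot be told apart.

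**Figure D1:**
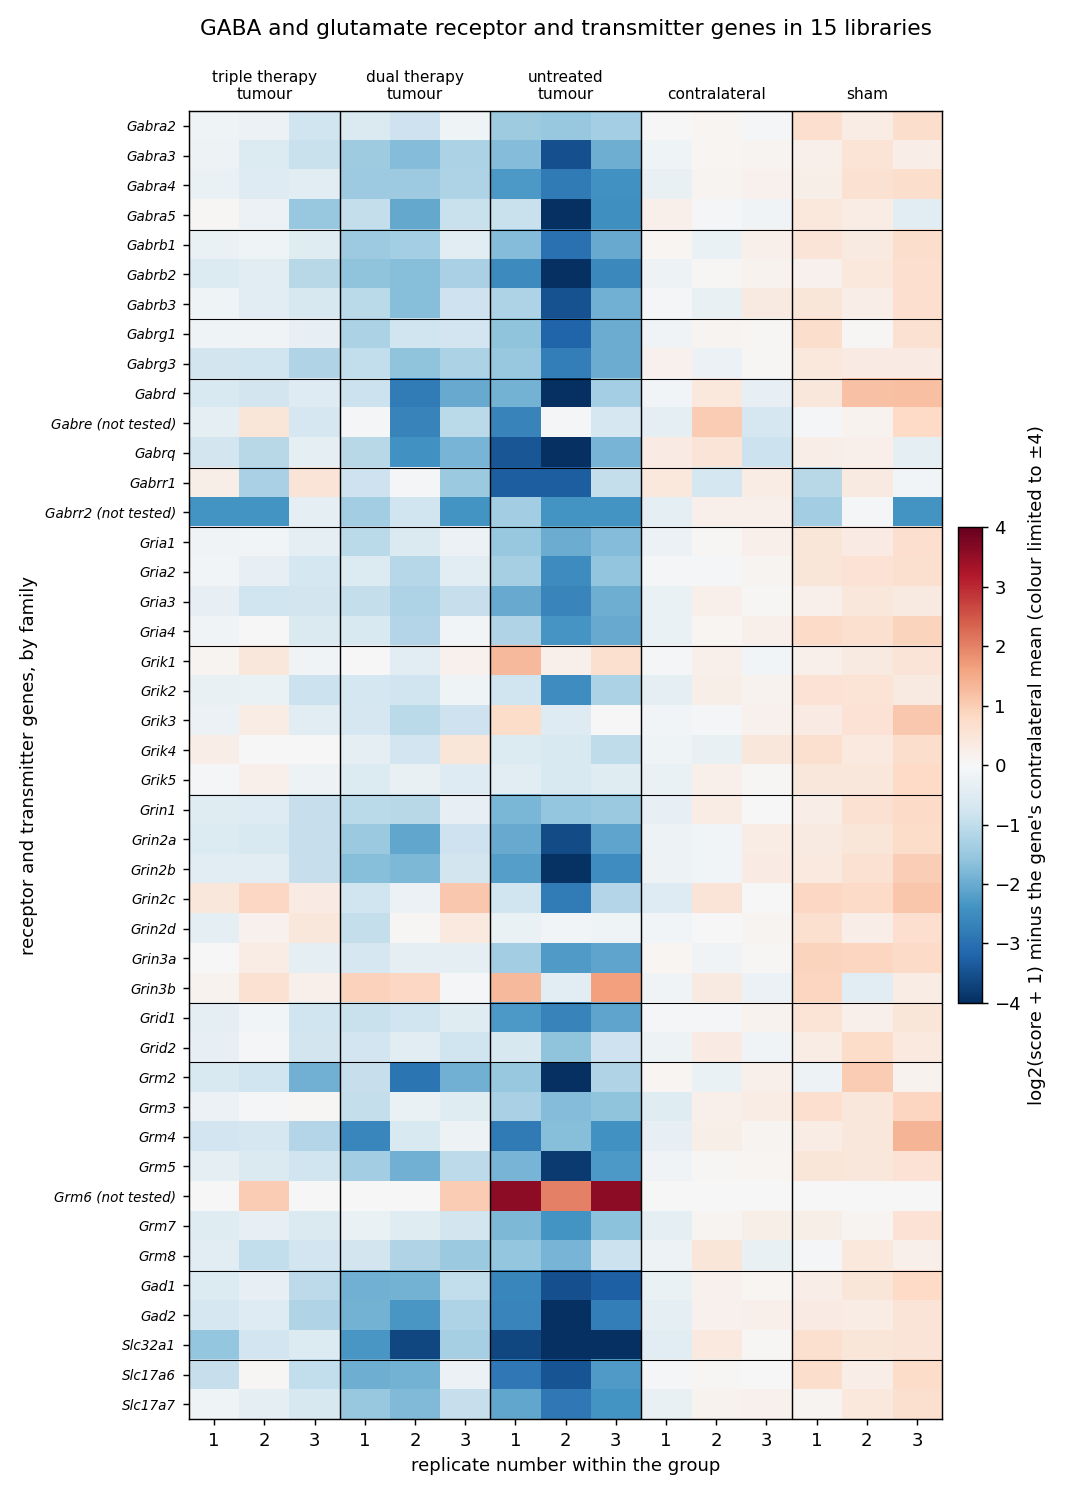
Score of the receptor and transmitter genes shown in each of the 15 libraries, drawn as log2(score + 1) minus the gene's contralateral mean, with genes in rows by family and libraries in columns by group; the colour stops at 4 either way. The untreated tumour columns are the lowest for most rows, and Grik1, Grik3 and Grin3b are among the rows that do not follow.

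Untreated tumour microvessels carried far less of nearly the whole set than the contralateral hemisphere. Of the 44 tested genes, 39 fell and 1 rose (limma, Benjamini-Hochberg adjusted p below 0.05), where 42.5% of all genes were called in either direction, 21.4% as falls and 21.1% as rises. The median log2 difference of the 44 was -2.26, against 0.01 over all genes tested. The median gene stood at 23.4% of its contralateral mean. The fall was seen in transmitter genes, GABA-A subunits, AMPA, NMDA, delta and metabotropic receptors, and was smallest in the kainate family.

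The genes that make and package GABA were among the most reduced. Slc32a1, the vesicular GABA transporter, had scores of 3, 1 and 2 in the untreated tumours, against 35, 65 and 51 in the contralateral hemisphere. Gad2, the synaptic form of glutamate decarboxylase, had 122, 37 and 113 in the untreated tumours, against 594, 864 and 899 in the contralateral hemisphere. Gad1, the form that supplies most GABA in the cell, had 80, 42 and 50 in the untreated tumours, against 411, 555 and 522 in the contralateral hemisphere. In these 3 genes every untreated tumour library lay below every contralateral library. The log2 differences were -4.11 ± 0.51 for Slc32a1 (SE, limma adjusted p = 4.59e-06), -3.25 ± 0.34 for Gad2 (adjusted p = 7.88e-07) and -3.13 ± 0.26 for Gad1 (adjusted p = 7.38e-08). The Slc32a1 estimate rests on scores of a few reads and was -3.15 with a pseudocount of 4 in place of 1. In the annotation, 24.9% of the Slc32a1 exon bases overlap Gm14205 on the opposite strand, and the sources used do not say whether counting used strand.

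Both vesicular glutamate transporters fell with them. Slc17a7, the form used by most cortical excitatory neurons, had scores of 166, 95 and 133 in the untreated tumours, against 567, 766 and 794 in the contralateral hemisphere. Slc17a6, the form common in thalamus and brainstem, had 31, 20 and 47 in the untreated tumours, against 221, 237 and 232 in the contralateral hemisphere. The groups did not overlap in either gene. The log2 differences were -2.44 ± 0.22 for Slc17a7 (limma adjusted p = 1.81e-07) and -2.86 ± 0.38 for Slc17a6 (adjusted p = 9.84e-06).

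All 14 tested GABA-A subunits fell, with a median log2 difference of -2.44. Gabrb2, a beta subunit of the common synaptic receptor, had scores of 73, 15 and 72 in the untreated tumours, against 380, 450 and 485 in the contralateral hemisphere, a log2 difference of -3.31 ± 0.39 (limma adjusted p = 2.6e-06). Its low value in untreated replicate 2 is the lowest in all 15 libraries. Gabra2, an alpha subunit enriched in forebrain, fell by 1.43, with 160, 149 and 165 in the untreated tumours and 430, 446 and 403 in the contralateral hemisphere. Gabrd, the delta subunit of extrasynaptic receptors, averaged 10 ± 9.17 in the untreated tumours and 48.7 ± 13.6 in the contralateral hemisphere (SD, n = 3 each), a log2 difference of -2.95 ± 0.75 (adjusted p = 0.00403). Gabre and Gabrr2 stayed between 0 and 12 in every library.

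Among glutamate receptors, 4 of 4 AMPA subunits, 5 of 7 NMDA subunits, both delta receptors and 7 of 7 tested metabotropic receptors fell. Gria2, the AMPA subunit that limits calcium entry, had scores of 864, 382 and 720 in the untreated tumours, against 2084, 2081 and 2363 in the contralateral hemisphere, with no overlap and a log2 difference of -1.81 ± 0.23 (limma adjusted p = 5.63e-06). Grin2b, an NMDA subunit that is prominent early in development and stays high in forebrain, had 856, 251 and 711 in the untreated tumours, against 3391, 3626 and 4986 in the contralateral hemisphere, and fell by 2.88 ± 0.34 (adjusted p = 2.65e-06). Grin2a, its adult partner, fell by 2.56. Grm5, a postsynaptic receptor that signals through phospholipase C, fell by 2.66, and Grm3, which astrocytes also carry, fell by 1.55. Grin2d and Grin3b were the NMDA subunits that were not called, with log2 differences of -0.18 ± 0.34 and 0.82 ± 0.50. For Grin3b, 32.1% of the exon bases overlap Tmem259 on the opposite strand.

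**Figure D2:**
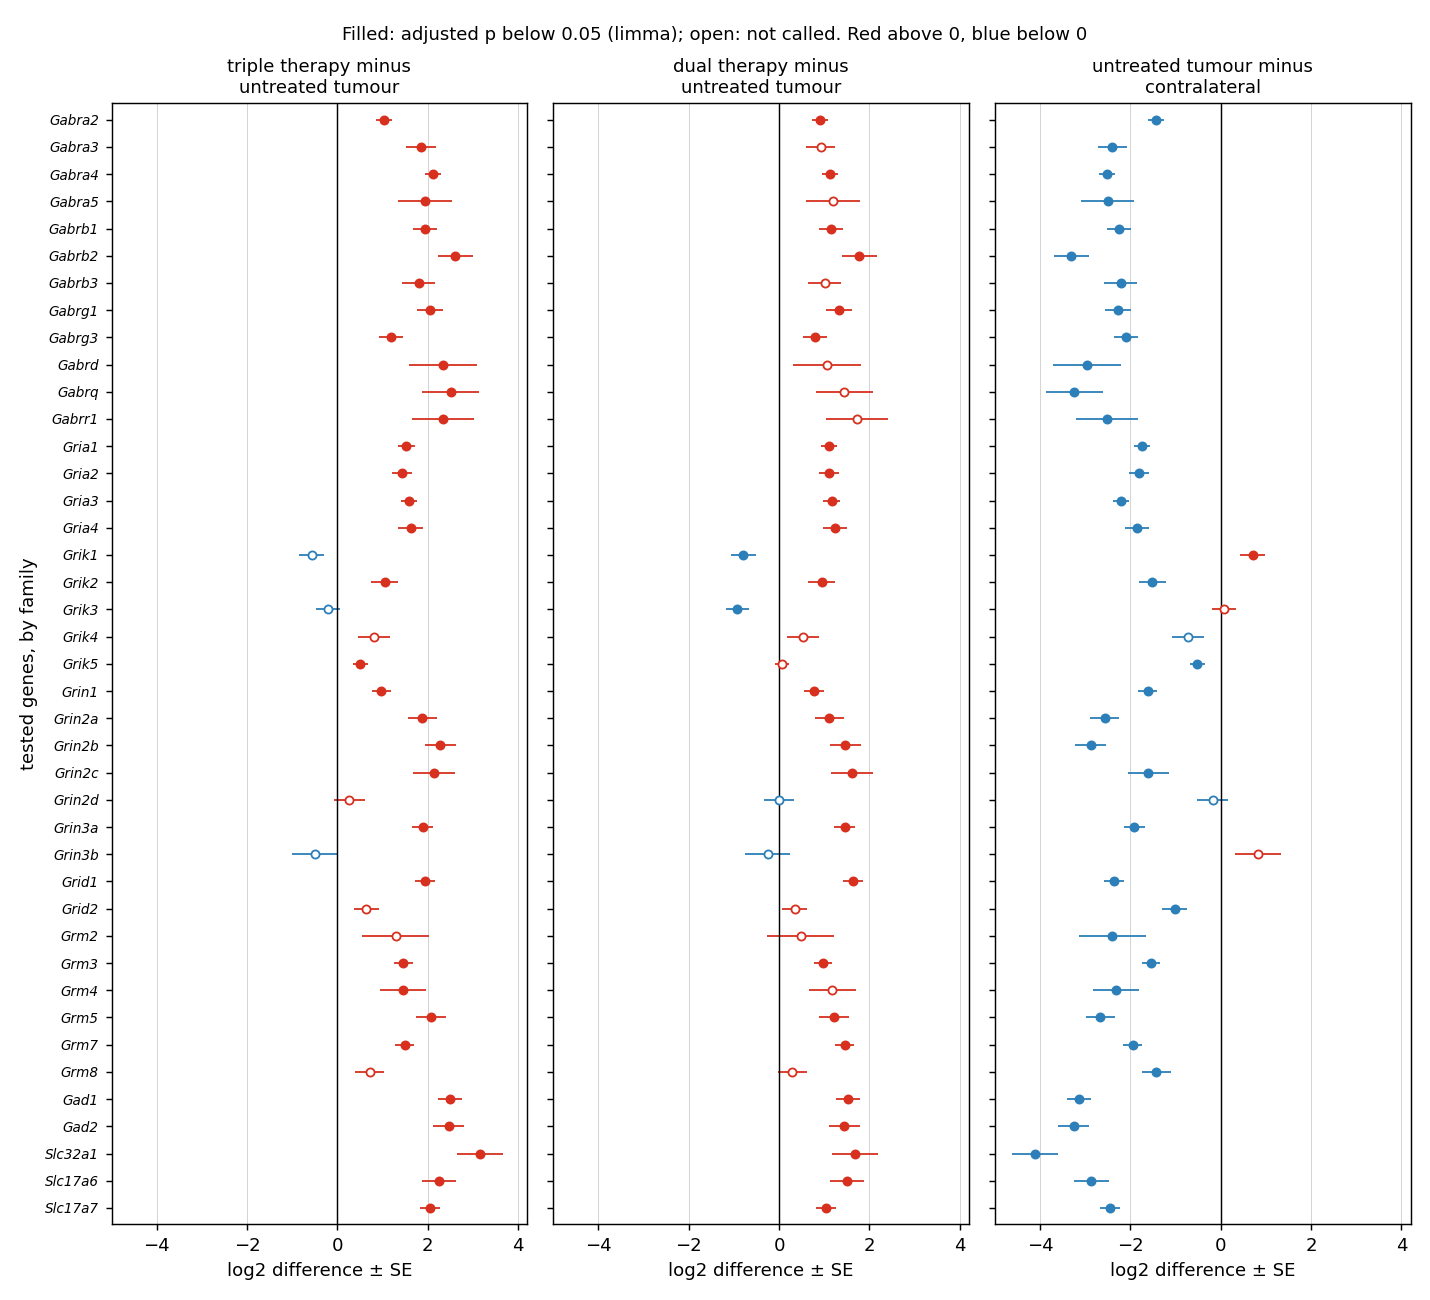
Fitted log2 difference with its SE for the tested genes shown, in the triple therapy tumours minus the untreated tumours, the dual therapy tumours minus the untreated tumours and the untreated tumours minus the contralateral hemisphere, on one scale, with filled points for adjusted p below 0.05. In the untreated minus contralateral panel Grik1, Grik3 and Grin3b lie above 0 and the other genes shown lie below it.

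The kainate receptors were mixed. Grik1 rose, with scores of 133, 63 and 85 in the untreated tumours, against 51, 62 and 50 in the contralateral hemisphere, a log2 difference of 0.71 ± 0.28 (limma adjusted p = 0.0447). The lowest untreated library was 1 score above the highest contralateral one, and the call was lost in 13 of 25 alternative settings, over which the adjusted p ran between 0.00689 and 0.25. Without untreated replicate 1 the log2 difference of Grik1 was 0.43. By limma's F-test over the 5 groups Grik1 was not called (adjusted p = 0.123). Grik3 had 391, 163 and 230 in the untreated tumours, against 216, 225 and 260 in the contralateral hemisphere, so its groups overlapped, and the log2 difference was 0.07 ± 0.26 (adjusted p = 0.852). Grik2 fell by 1.51 and Grik5, a high-affinity subunit that needs a partner to form a channel, fell by 0.51 (adjusted p = 0.0128), while Grik4 was not called at -0.72 ± 0.36. Grm6, a metabotropic receptor best known from retinal ON bipolar cells, was listed at 11, 3 and 11 in the untreated tumours and at 0 in all 6 contralateral and sham libraries, and 11.1% of its exon bases overlap Gm12660 on the opposite strand. It did not pass the filter and was chosen for mention after its values were seen.

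**Figure D3:**
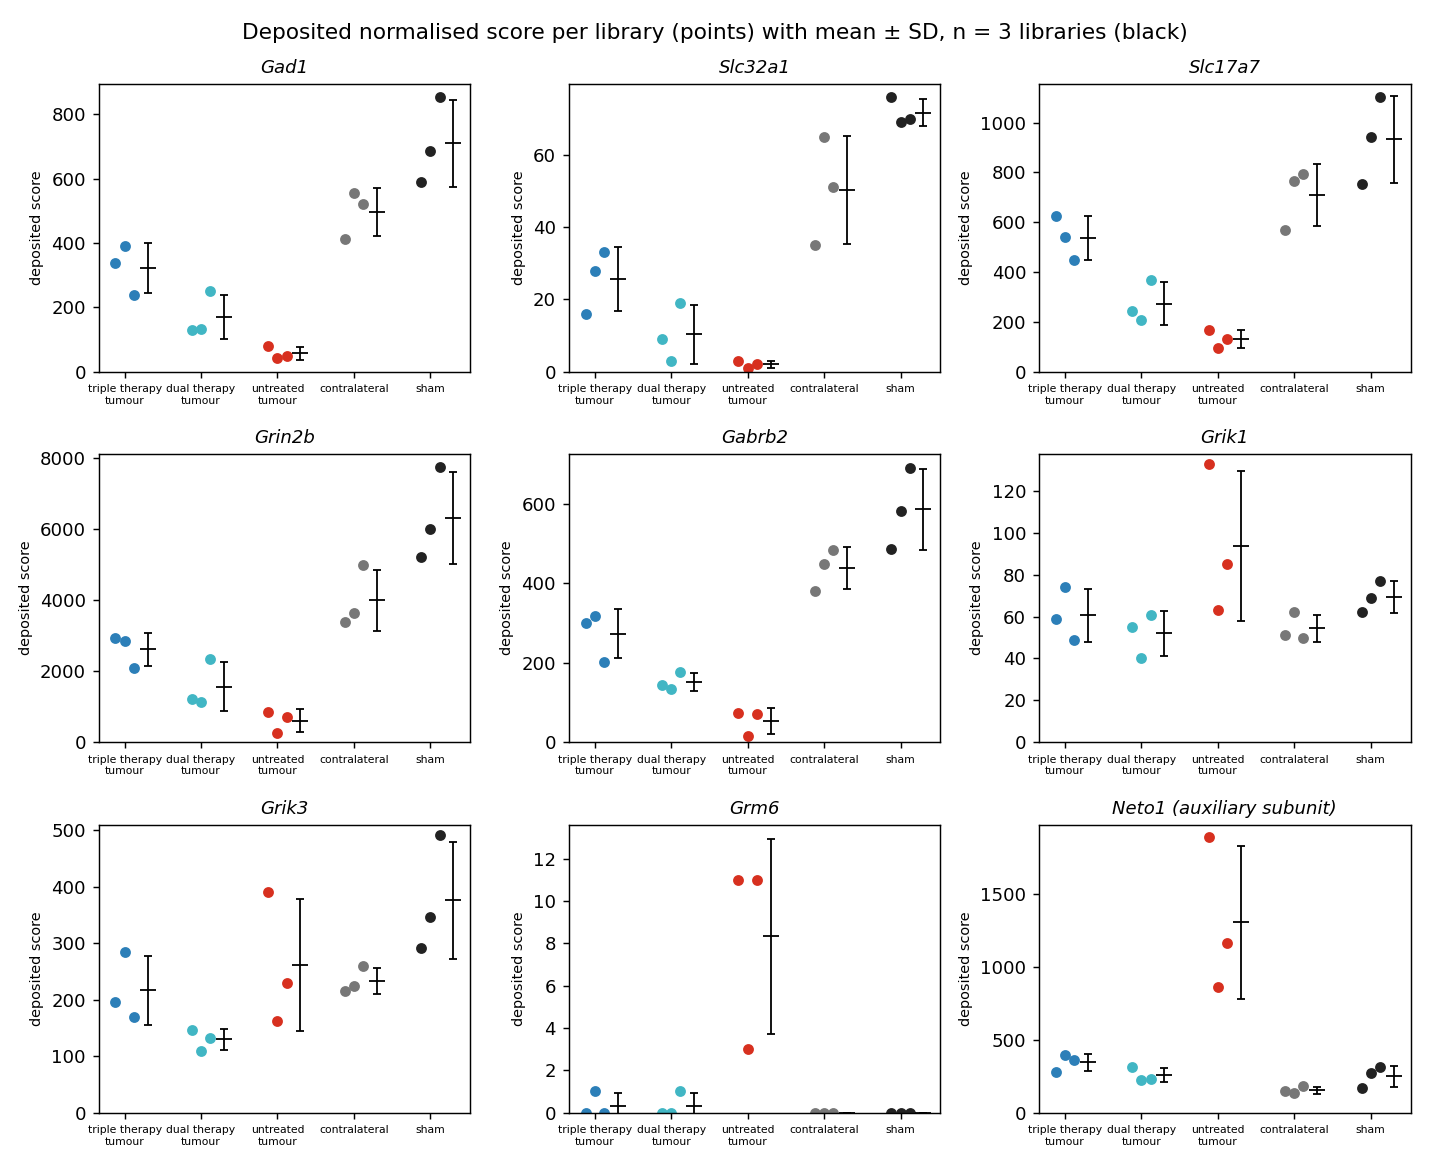
Score of 9 genes in every library, with points for libraries and black bars for the mean ± SD of 3 libraries, in the order triple therapy tumour, dual therapy tumour, untreated tumour, contralateral and sham. Gad1, Slc32a1, Slc17a7, Grin2b and Gabrb2 are lowest in the untreated tumours, while Grik1, Grm6 and Neto1 are highest there.

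Against sham brain the picture was larger in the same direction. Of the 44 genes 40 fell and 0 rose, where 46.6% of all genes were called and 23.3% fell. The median log2 difference was -2.70, against 0.03 over all genes. Slc32a1 fell by 4.65, Gabrd by 3.89, Gabrb2 by 3.72, and Gad1 and Gad2 by 3.64 each. Grin2d, Grin3b, Grik1 and Grik3 were not called, with log2 differences of -0.70, 0.59, 0.37 and -0.58. Scaled to the pan-neuronal markers described below, 10 genes were lower, where 0.524% of all genes were, and 7 were higher, where 90.2% were.

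The contralateral hemisphere and sham brain were not separated by the test. None of the 44 genes was called by limma (0.432% of all genes were), and 10 had an unadjusted p below 0.05, as did 2341 of the 19668 genes. The fitted difference was below 0 in 43 of 44, with a median of -0.51 against -0.01 over all genes, and in 30 genes every contralateral library lay below every sham library, where 12.5% of all genes did. Gad1, for example, had 411, 555 and 522 in the contralateral hemisphere, against 588, 687 and 854 in sham brain, a log2 difference of -0.51 ± 0.26 (adjusted p = 0.47). The sham libraries also held more score of pan-neuronal, astrocyte and oligodendrocyte markers. Astrocyte markers summed to between 37492 and 47570 in the contralateral hemisphere and between 50968 and 74933 in sham brain, and oligodendrocyte markers to between 13467 and 14079 in the contralateral hemisphere and between 21823 and 29892 in sham brain. Their part in the shift was not tested.

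Genes that mark neurons in general fell along with the set. Of the 14 pan-neuronal markers, 12 fell in untreated tumours against the contralateral hemisphere, with a median log2 difference of -1.87. Minus the contralateral mean, their mean log2 score was -1.40, -2.05 and -1.54 in the untreated libraries. The same value was -1.06, -2.26 and -1.26 for inhibitory neuron markers and -1.57, -2.04 and -1.76 for excitatory neuron markers. Whether GABA neurons were lost more than other neurons was not tested. Proliferation markers moved the other way, with a summed score between 7092 and 15604 in untreated tumours and between 134 and 353 in the contralateral hemisphere, and 10 of 10 rose. Of 12 astrocyte markers 7 fell and 1 rose, and of 7 T cell markers 7 rose. The part of these shifts in the fall of the 44 genes was not tested beyond the scaling that follows.

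When each library was scaled by its own mean over the pan-neuronal markers, 15 of the 44 genes were still lower in untreated tumours than in the contralateral hemisphere, where 0.737% of all genes were. They include all 5 transmitter genes, the GABA-A subunits Gabra4, Gabrb2, Gabrd and Gabrq, the metabotropic receptor Grm5, and the NMDA subunits Grin2a and Grin2b. Slc32a1 was lower by -2.45 ± 0.53 on this scale (limma adjusted p = 4.51e-05), Gabrb2 by -1.64 ± 0.35 (adjusted p = 3.69e-05), Gad2 by -1.59 ± 0.32 (adjusted p = 1.87e-05) and Gad1 by -1.47 ± 0.32 (adjusted p = 4.5e-05). Another 6 genes, Grik1, Grik3, Grik4, Grik5, Grin2d and Grin3b, were higher on it, but so were 80.9% of all genes, since the scale itself falls in the tumours. The share of all genes lower on it is small for the same reason. This holds as well against sham brain and for dual therapy against the contralateral hemisphere. The count of 21 called genes was 13 without contralateral replicate 2.

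**Figure D4:**
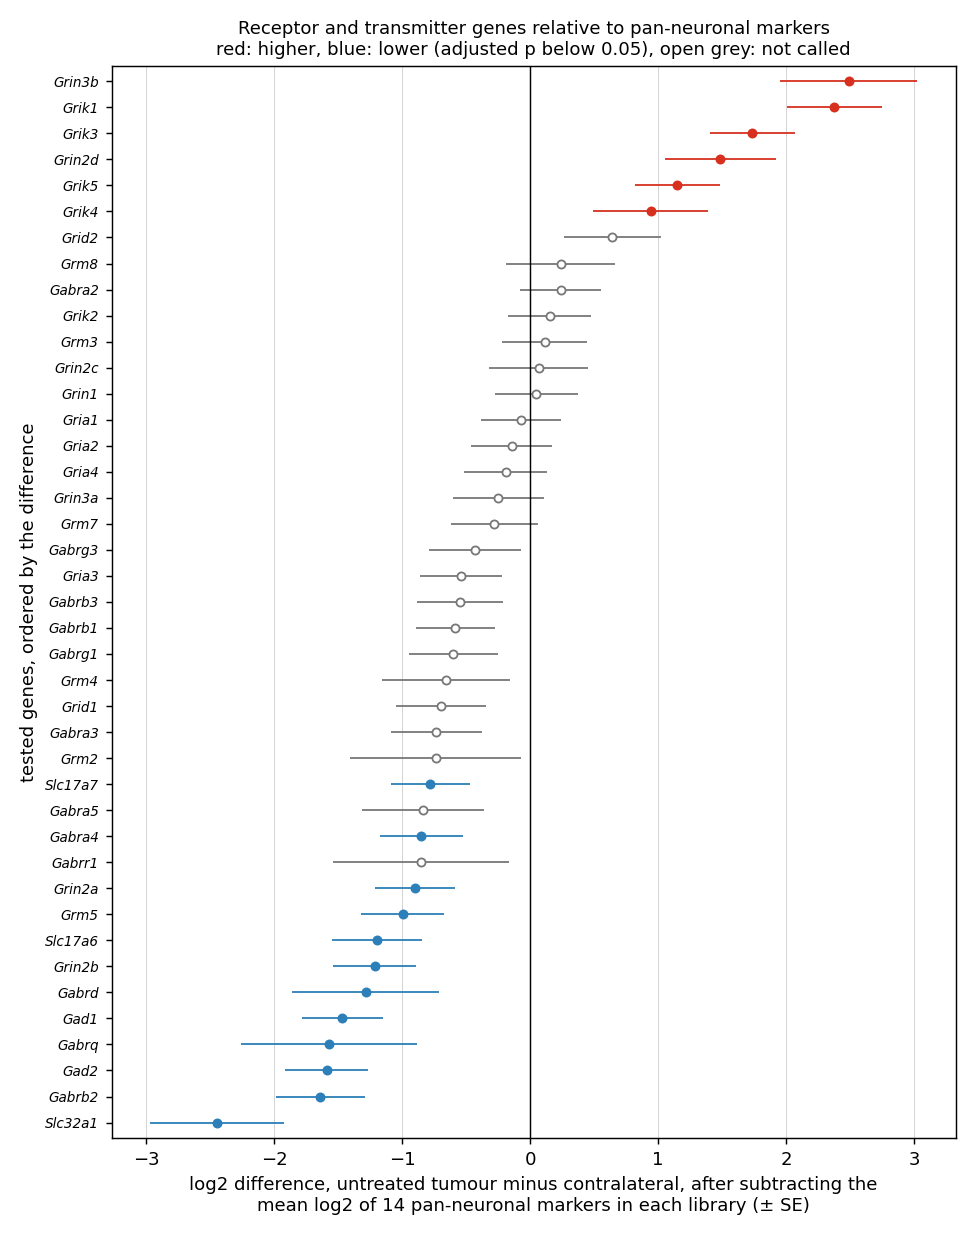
Log2 difference of the tested genes shown between untreated tumours and the contralateral hemisphere after scaling to 14 pan-neuronal markers (points, bars ± SE), in order of size, with filled points for adjusted p below 0.05. Slc32a1, Gabrb2 and Gad2 are the lowest, and the 6 genes called higher are all kainate or NMDA subunits.

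The make-up of the receptor families shifted as well. Among kainate subunits, with scores divided by exon length, Grik1 made up 14.1% ± 1.4 in untreated tumours and 6.36% ± 0.85 in the contralateral hemisphere, and Grik2 made up 13.2% ± 4.0 in untreated tumours and 27.0% ± 2.0 in the contralateral hemisphere (SD, n = 3 each). Among NMDA subunits, Grin2b made up 32.1% ± 6.5 in untreated tumours and 52.7% ± 3.4 in the contralateral hemisphere. In each of these the libraries of the groups did not overlap. Treated tumours lay nearer to the contralateral values, with Grik1 at 7.66% ± 0.26 of kainate subunits in triple therapy tumours and 8.60% ± 1.36 in dual therapy tumours, and Grin2b at 48.5% ± 2.2 of NMDA subunits in triple therapy tumours and 41.9% ± 2.1 in dual therapy tumours. Per kilobase of exon, Grm3 (44.8), Gria2 (42.1) and Grik5 (37.5) had the highest mean scores of the set in untreated tumours, while Grin2b (161), Gria2 (140) and Grm3 (134) had the highest in the contralateral hemisphere.

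Dual therapy tumours carried more of the set than untreated tumours. Of the 44 genes 28 rose and 2 fell, where 22.3% of all genes were called, 12.1% as rises and 10.2% as falls. The median log2 difference was 1.12, against -0.01 over all genes, and the median gene stood at 50.7% of its contralateral mean. All 3 genes of GABA synthesis and vesicle loading, both vesicular glutamate transporters and 4 of 4 AMPA subunits rose. So did 8 of 14 GABA-A and 5 of 7 NMDA subunits. Gad1 had scores of 128, 132 and 249 in the dual therapy tumours, against 80, 42 and 50 in the untreated tumours, a log2 difference of 1.53 ± 0.26 (limma adjusted p = 0.0006). Gabrb2 had 143, 134 and 177 in the dual therapy tumours, against 73, 15 and 72 in the untreated tumours, a log2 difference of 1.77 ± 0.39 (adjusted p = 0.00351). Grid1, a delta receptor that binds cerebellins at synapses, rose by 1.64 ± 0.22 (adjusted p = 9.54e-05). Gad2 rose by 1.44 and Slc17a7 by 1.04, and Slc17a6 also rose (adjusted p = 0.00882). The Slc17a6 call was lost in 2 of 25 alternative settings and that of Slc17a7 in 1. Slc32a1 had 9, 3 and 19 in the dual therapy tumours and 3, 1 and 2 in the untreated tumours. It rose by 1.69 ± 0.51 (limma adjusted p = 0.0237). That call was lost in 5 of 25 alternative settings, among them without dual therapy replicate 1 or 3 or untreated replicate 2. Grin2c, an NMDA subunit best known from cerebellum, rose by 1.62 ± 0.46 (adjusted p = 0.017), a call lost in 7 of 25 settings, among them at 1.08 without dual therapy replicate 3 and at 1.01 without untreated replicate 2. With scores scaled to endothelial markers 16 genes were called, and 18 with a fit to the compared libraries alone.

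The genes that fell were both kainate subunits. Grik3 had scores of 147, 110 and 132 in the dual therapy tumours, against 391, 163 and 230 in the untreated tumours, with no overlap and a log2 difference of -0.92 ± 0.26 (limma adjusted p = 0.0175). Grik1 had 55, 40 and 61 in the dual therapy tumours, against 133, 63 and 85 in the untreated tumours, also with no overlap and a log2 difference of -0.79 ± 0.28 (adjusted p = 0.0471), a call that was lost in 19 of 25 alternative settings with adjusted p between 0.0121 and 0.246. Without untreated replicate 1 the log2 difference was -0.59 for Grik3 and -0.51 for Grik1, and neither was called. Grik1 was not called by the F-test over the 5 groups either. Grik3 also lost its call without dual therapy replicate 2, at -0.81, and in 4 of 25 alternative settings in all. The dual therapy tumours also held less proliferation marker score, between 1202 and 2092, and 10 of the 10 markers fell. The part of that in the fall of the kainate subunits was not tested.

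Triple therapy tumours carried more of the set again. Of the 44 genes 36 rose and 0 fell against untreated tumours, where 32.2% of all genes were called and 17.2% rose. The median log2 difference was 1.76, against -0.02 over all genes, and the median gene stood at 73.2% of its contralateral mean. All 14 tested GABA-A subunits rose, with all 3 genes of GABA synthesis and vesicle loading and both vesicular glutamate transporters. So did 4 of 4 AMPA, 5 of 7 NMDA, 5 of 7 metabotropic and 2 of 5 kainate genes. Slc32a1 had scores of 16, 28 and 33 in the triple therapy tumours, against 3, 1 and 2 in the untreated tumours, a log2 difference of 3.15 ± 0.51 (limma adjusted p = 0.00016). Gad2 had 486, 539 and 336 in the triple therapy tumours, against 122, 37 and 113 in the untreated tumours, a difference of 2.46 ± 0.34 (adjusted p = 3.88e-05). Grin2b had 2932, 2850 and 2083 in the triple therapy tumours, against 856, 251 and 711 in the untreated tumours, a difference of 2.27 ± 0.34 (adjusted p = 7.34e-05). In all 3 genes the groups did not overlap. Gabrb2 rose by 2.61, Gad1 by 2.49, Slc17a6 by 2.24 and Slc17a7 by 2.05, and each kept its call in all 25 alternative settings. Grik1 and Grik3 were not called here, at -0.57 ± 0.28 (adjusted p = 0.125) and -0.21 ± 0.26 (adjusted p = 0.577).

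Neuronal markers rose with the set in both treated groups, 12 of 14 in triple therapy tumours with a median log2 difference of 1.47, and 9 of 14 in dual therapy tumours with a median of 0.99, each against untreated tumours. Astrocyte markers moved the same way, with 7 of 12 higher in triple and 6 of 12 in dual therapy tumours, and summed to between 37262 and 45113 in triple therapy tumours, 19686 and 49743 in dual therapy tumours and 16896 and 18351 in untreated tumours. Their part in the rise of the set was not tested. After scaling to the pan-neuronal markers, 10 genes were higher in triple therapy tumours than in untreated tumours, where 0.59% of all genes were. They include the 5 transmitter genes, Gabra4, Gabrb2, Grm5 and Grin2b. In dual therapy tumours 4 genes were higher on that scale, Grid1, Gad1 and Gabrb2 among them, where 0.447% of all genes were. Lower on it were Grik1, Grik3, Grik5, Grin2d and Grin3b in triple therapy tumours, where 75.3% of all genes were, and Grik1 and Grik3 in dual therapy tumours, where 32.2% were. The scale itself rises in treated tumours, which makes the shares of all genes small on the higher side and large on the lower side. The count of 15 genes called in triple therapy tumours was 7 without untreated replicate 2, and the count of 6 in dual therapy tumours was 2 without it.

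**Figure D5:**
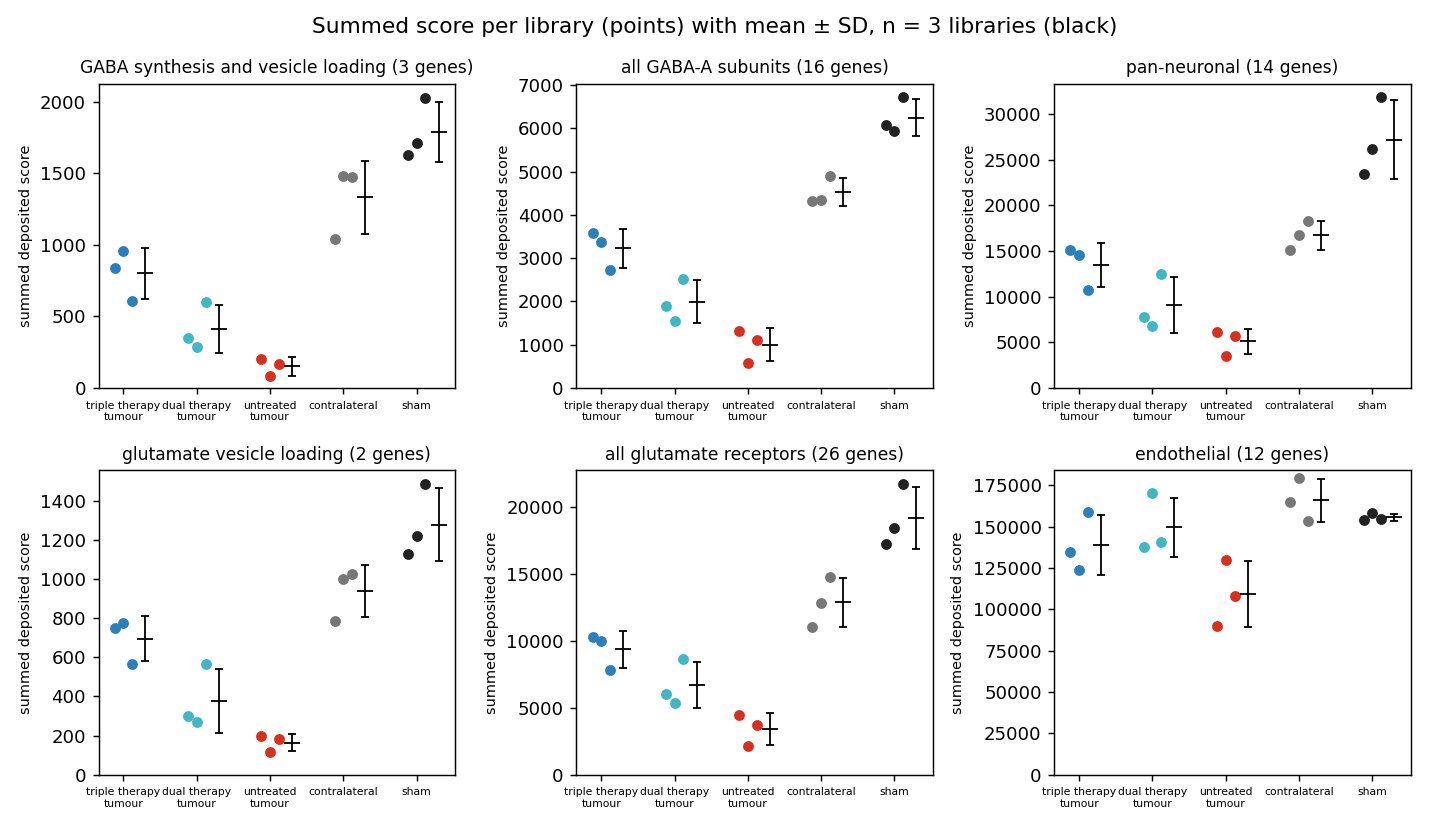
Summed score of 6 gene sets in every library, with points for libraries and black bars for the mean ± SD of 3 libraries, in the order triple therapy tumour, dual therapy tumour, untreated tumour, contralateral and sham. The 3 genes of GABA synthesis and vesicle loading summed to between 607 and 958 in triple therapy tumours and 287 and 599 in dual therapy tumours. Their sums were between 80 and 205 in untreated tumours, 1040 and 1484 in the contralateral hemisphere and 1631 and 2031 in sham brain.

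Triple and dual therapy tumours differed in few of the genes by the test. Gabra4, an alpha subunit of extrasynaptic receptors, had scores of 313, 264 and 279 in the triple therapy tumours, against 136, 135 and 159 in the dual therapy tumours, a log2 difference of 0.99 ± 0.18 (limma adjusted p = 0.0175). Slc17a7 had 626, 539 and 448 in the triple therapy tumours, against 243, 206 and 370 in the dual therapy tumours, a difference of 1.01 ± 0.22 (adjusted p = 0.0397). These were the 2 of 44 that were called, where 0.869% of all genes were called and 0.524% rose. Every triple therapy library lay above every dual therapy library in both genes. Of the 44 genes 43 had a fitted difference above 0, with a median of 0.51 against 0.01 over all genes, and 15 did not overlap, where 9.27% of all genes were higher without overlap. The other transmitter genes were not called after adjustment over all genes tested. Without adjustment for the number of genes, the interval of the log2 difference was 0.41 to 1.51 for Gad1, 0.30 to 1.74 for Gad2, 0.39 to 2.53 for Slc32a1 and -0.06 to 1.54 for Slc17a6. The intervals of Gad1, Gad2 and Slc32a1 thus lay above 0. The count of 2 was 0 without triple therapy replicate 1, triple therapy replicate 3 or dual therapy replicate 2, 1 without triple therapy replicate 2, dual therapy replicate 1, contralateral replicate 3 or any sham library, 5 without dual therapy replicate 3 and 7 without untreated replicate 2.

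Set against the contralateral hemisphere, dual therapy tumours stayed lower in 24 of the 44 genes, where 5.89% of all genes fell and 12.8% were called. The median log2 difference was -1.07, and Slc32a1 fell by 2.42, Gad2 by 1.81, Gad1 by 1.60 and Slc17a6 by 1.36. Scaled to pan-neuronal markers, 3 genes were lower, Gad2 and Slc32a1 among them, where 0.29% of all genes were, and Grin2c and Grin3b were higher, where 53.2% were; this count of 5 was 0 without dual therapy replicate 2 or contralateral replicate 3, 2 without contralateral replicate 2, 3 without contralateral replicate 1 and 9 without dual therapy replicate 3. The Slc17a6 call was lost in 8 of 25 alternative settings, among them without dual therapy replicate 1 or 2 or any contralateral library. The count of 24 was 12 without dual therapy replicate 2, 14 without contralateral replicate 3 and 13 with scores scaled to endothelial markers. In triple therapy tumours none of the 44 genes was called against the contralateral hemisphere by limma (4.97% of all genes were), 12 had an unadjusted p below 0.05, as did 3040 of the 19668 genes, and 39 had a fitted difference below 0, with a median of -0.46 against -0.01 over all genes. In 20 of them every triple therapy library lay below every contralateral library, where 10.5% of all genes did. The smallest adjusted p-values were 0.0541 for Gabrg3, at -0.91, and 0.0542 for Gria3, at -0.63, and the count was 5 without untreated replicate 2, 2 without untreated replicate 1, 1 without triple therapy replicate 1, dual therapy replicate 2 or 3 or contralateral replicate 1, and 10 with a fit to the compared libraries alone. The comparisons share the untreated and contralateral libraries, so their values are given side by side and not set against each other.

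Other genes of these synapses fell in differing shares in the untreated tumours, set against 21.4% of all genes. Of 6 genes of GABA transport and breakdown 6 fell against the contralateral hemisphere, with a median log2 difference of -1.63. They include Slc6a11, an astrocyte GABA transporter, with scores of 96, 102 and 129 in the untreated tumours and 433, 431 and 431 in the contralateral hemisphere. Of 11 genes of glutamate transport and metabolism 4 fell, among them Slc1a2, the main astrocyte glutamate transporter, at 9589 ± 353 in the untreated tumours and 30193 ± 3728 in the contralateral hemisphere (SD, n = 3 each). Of 5 genes of the GABA-B receptor 4 fell, with Gabbr2 at -2.32, while Gabbr1 was not called at -0.28 (limma adjusted p = 0.108). Among 10 inhibitory synapse scaffold genes 8 fell, among 20 excitatory scaffold genes 14 fell and 1 rose, and among 6 chloride transporter and glycine receptor genes 4 fell, including Glrb, the glycine receptor beta subunit, by 2.23 ± 0.14 (adjusted p = 2.49e-09).

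Among 16 auxiliary subunits of ionotropic glutamate receptors 12 fell and 1, Neto1, rose. Neto1, an auxiliary subunit of kainate receptors that slows their gating, had scores of 1889, 864 and 1167 in the untreated tumours, against 147, 134 and 180 in the contralateral hemisphere, a log2 difference of 3.01 ± 0.25 (limma adjusted p = 6.75e-08). It had 280, 395 and 358 in the triple therapy tumours and 312, 224 and 233 in the dual therapy tumours, falls of 1.86 ± 0.25 (adjusted p = 2.93e-05) and 2.29 ± 0.25 (adjusted p = 1.6e-05) against the untreated tumours, and it stayed above the contralateral hemisphere in triple therapy tumours by 1.16 ± 0.25 (adjusted p = 0.00781). In dual therapy tumours its difference from the contralateral hemisphere was 0.73 ± 0.25 and was not called (adjusted p = 0.0643). Olig2, a factor of oligodendrocyte precursors and gliomas, moved alongside it, with 89, 159 and 115 in triple therapy tumours, 124, 110 and 168 in dual therapy tumours, 931, 368 and 592 in untreated tumours and 55, 51 and 54 in the contralateral hemisphere. The oligodendrocyte precursor list as a whole split, with 4 of 9 markers higher and 2 lower in untreated tumours against the contralateral hemisphere, and its part in the result was not tested. A list of 10 glioma and glial progenitor markers, which also holds Olig2, summed to between 29612 and 36088 in untreated tumours. Its sums were 31901 to 33565 in triple therapy tumours and 32708 to 35700 in dual therapy tumours. They were 24351 to 29020 in the contralateral hemisphere and 29018 to 29953 in sham brain, which overlaps the untreated tumours. As a mean log2 score the list ran from 8.48 to 9.10 in untreated tumours. In the contralateral hemisphere that mean ran from 8.335 to 8.59, so these groups overlapped too. The part of that list was not tested either. Against untreated tumours, 5 of 6 GABA transport and breakdown genes rose in triple therapy tumours and 6 of 6 in dual therapy tumours, and 8 of 16 auxiliary subunits rose in triple therapy tumours and 4 of 16 in dual therapy tumours, while Neto1 fell in each.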

How the data were processed

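Libraries were made from 100 ng RNA with a stranded total RNA kit, per the labels' protocols. Per the submitters' processing notes, STAR 2.4.0a, featureCounts 1.4.5-p1 and DESeq2 were used on build mm10 (GRCm38). The deposited values are a score, judged from the values to be normalised reads per gene that the authors rounded to whole numbers, so no count test was run. Genes that reached 10 in 3 or more libraries entered the fit of log2(score + 1) in limma 3.58.1 in R 4.3.3 (moderated with a trend, 1 mean per group, all 15 libraries, 8 comparisons), with Benjamini-Hochberg adjustment over all 19668 genes and a threshold of 0.05. Fold changes are on the log2(score + 1) scale, which understates changes of low genes. Depth was estimated from the steps between low scores. The scripts were tested on simulated data. A second fit subtracted each library's mean log2 score of 14 pan-neuronal markers. The naming rule took, in each comparison, the transmitter genes and the called genes with the largest differences at a mean score of at least 50. Genes called against the main direction were added. Values of other genes are also given, and these were not followed gene by gene through the alternative settings. The genes, lists and tests were chosen with earlier results of these data known. Alternatives changed the pseudocount, filter, scaling, spread model, replicate block and libraries. A few genes of the set entered the fits and counts but are not reported here by name. Exon overlaps came from GENCODE, promoters from RefSeq.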

Additional observations from a re-analysis of the deposited data

Results flagged for a closer look

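The difference between triple and dual therapy tumours was itself tested and passed for 2 genes, which is what brought them here. Gabra4 was higher in triple therapy tumours by 0.99 on the log2 scale (limma, adjusted p = 0.0175), with all 3 triple therapy libraries above all 3 dual therapy libraries, and its adjusted p ran between 0.00617 and 0.0917 over 25 alternative settings, 5 of which lost the call. Slc17a7 was higher by 1.01 (adjusted p = 0.0397), again with all 3 libraries above, and its adjusted p ran between 0.00901 and 0.198, with the call lost in 14 of the 25. Pan-neuronal markers moved the same way, with 3 of 14 higher in triple therapy tumours and a median log2 difference of 0.71, and their part in the result was not tested beyond scaling. After scaling to those markers neither gene was called.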

How the results depend on the processing

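No gene named under the rule changed sign in any alternative: 1264 values kept their side of the threshold, 78 lost it and 8 gained it. Main counts of called genes moved as follows. For triple therapy against contralateral (0), a pseudocount of 4 gave 2, quantile normalisation 2, the compared libraries alone 10, quality weights 7 and the replicate block 1. For dual therapy against untreated (30), endothelial scaling gave 16 and the compared libraries alone 18. For triple against dual therapy (2), endothelial scaling gave 0, quantile normalisation 1, the compared libraries alone 1, no trend 0 and quality weights 6. For dual therapy against contralateral (24), endothelial scaling gave 13 and no trend 14. For contralateral against sham (0), quality weights gave 4. Relative to pan-neuronal markers, dual therapy against contralateral (5) gave 3 with the list median. The cause was not tested.

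Leaving out untreated tumour replicate 2 and dual therapy replicate 2 together, chosen after seeing the data, gave 8 for triple therapy against contralateral, 1 for triple against dual therapy, 1 for contralateral against sham and 1 relative to neurons for dual therapy against contralateral. It gave 40 for untreated against contralateral, 27 for dual and 34 for triple therapy against untreated. Leaving out 1 library at a time gave 39 to 40 for untreated against contralateral, 39 to 41 against sham, 0 to 0 for contralateral against sham, 21 to 31 for dual and 31 to 36 for triple therapy against untreated, 0 to 7 for triple against dual therapy, 12 to 27 for dual and 0 to 5 for triple therapy against contralateral, and 39 to 41 among the 5 groups. Relative to neurons the ranges were 13 to 25 for untreated against contralateral, 13 to 19 against sham, 2 to 6 for dual and 7 to 19 for triple therapy against untreated, 0 to 2 for triple against dual therapy, 0 to 9 for dual therapy against contralateral, and 0 to 0 for triple therapy against contralateral and contralateral against sham. With a replicate block the counts were 39 for untreated against contralateral, 40 against sham, 31 for dual and 36 for triple therapy against untreated, 2 for triple against dual therapy and 23 for dual therapy against contralateral; the deviations of same-numbered libraries had a median r of 0.0115 with 1 of 30 pairs over 0.1, and those of differently numbered ones a median r of -0.005 with 1 of 60 over 0.1. Endothelial scaling put the median of all genes at 0.36 for untreated against contralateral and at -0.28 for dual therapy against untreated. Scores of a few reads, as in Slc32a1, limit the precision of the lowest genes.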
